A study of Mus musculus with 9 samples.

Results

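B and T lymphocyte marker genes were followed in the ventricles of mice given adrenoceptor agonists. The list holds 9 genes. Cd79a, Cd79b, Ms4a1 and Cd22 mark B cells, Cd3e, Cd3g, Lck and Cd4 mark T cells, and Nkg7 marks natural killer and cytotoxic T cells. Members were chosen by gene symbol and, for each symbol, selected on measured values: a gene had to be present in both deposited count tables, and its transcript with the highest total count stood for it. Of the 9 genes, 7 were in both tables, out of 15149 genes joined. Cd3g was in 1 table alone and Cd3e in neither. The presence of a member and its total count are therefore given as descriptions. The members were also picked with earlier results of these libraries known, so the tests below are not independent evidence.

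The RNA came from whole ventricles of 9 wild-type C57Bl6N mice, 3 per group. Ctr hearts (2 females, 1 male) came from mice without a pump at 0 d. ISO hearts (1 female, 2 males) came from mice that received isoprenaline, a beta-adrenoceptor agonist, from an osmotic minipump at 30 mg/kg/day for 96 h, that is 4 d. ISO/PE hearts (1 female, 2 males) received the same isoprenaline together with phenylephrine, an alpha1-adrenoceptor agonist, at 30 mg/kg/day. Each comparison with Ctr spans pump surgery, its anaesthesia and analgesia, 4 d and another ratio of the sexes as well as the drug. Both comparisons use the same 3 Ctr hearts. The library labels give an age of 2-3 months and the methods of the study 3-4 months.

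B cells sense antigen through a membrane immunoglobulin that signals through the paired chains encoded by Cd79a and Cd79b. Ms4a1 encodes CD20, a surface protein of B cells, and Cd22 encodes a sialic acid-binding receptor that dampens B cell receptor signals. T cells signal through the CD3 chains, among them those of Cd3e and Cd3g, with the kinase Lck bound to the coreceptors CD4 and CD8. In mice CD4 is also present on some monocytes, macrophages and dendritic cells. Nkg7 encodes a membrane protein of cytotoxic granules. The healthy heart holds resident macrophages together with smaller numbers of B and T cells.

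In mm10 (GRCm38, GENCODE M21 genes) Cd79a lies at chr7:24897381-24902197 on the plus strand and Cd79b at chr11:106311341-106314762 on the minus strand. Ms4a1 lies at chr19:11249675-11266241, Cd22 at chr7:30865402-30880342, Lck at chr4:129548344-129573641 and Cd4 at chr6:124864692-124888221, all on the minus strand. Nkg7 lies at chr7:43437073-43438249 on the plus strand, and Cd3e (chr9:44998740-45009627) and Cd3g (chr9:44969572-44980431) are neighbours on the minus strand. Reads were counted over exons without regard to strand. Exons of other genes cover 9.5% of the exon bases of Cd22, 3.31% of those of Cd3e and 0.854% of those of Lck, and none of those of the other members.

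The promoters of the B cell members Cd79a and Cd22 are shown because these genes of 1 lineage had unlike values in the comparisons below. RefSeq promoter windows (GRCm38.p6, 250 bases before to 50 after the start) matched 6 of the 9 members, Cd79a, Cd22, Lck, Nkg7, Cd3g and Cd3e. Capitals mark the motifs searched on both strands, which do not overlap in these windows: AGGAAGT for ETS factors, TCCC and GGGA parted by any 2 bases for EBF factors, ATGCAAAT for octamer factors and TGTGGTT for RUNX factors. The Cd79a window is chr7:24897247-24897546 on the plus strand and the Cd22 window chr7:30878979-30879278 on the minus strand, both printed in the direction of the gene.
Cd79a: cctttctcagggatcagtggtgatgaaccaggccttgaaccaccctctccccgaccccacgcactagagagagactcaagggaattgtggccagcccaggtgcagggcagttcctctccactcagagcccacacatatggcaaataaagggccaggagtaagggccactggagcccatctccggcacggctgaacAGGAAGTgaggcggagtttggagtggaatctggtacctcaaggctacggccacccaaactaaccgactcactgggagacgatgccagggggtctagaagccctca
Cd22: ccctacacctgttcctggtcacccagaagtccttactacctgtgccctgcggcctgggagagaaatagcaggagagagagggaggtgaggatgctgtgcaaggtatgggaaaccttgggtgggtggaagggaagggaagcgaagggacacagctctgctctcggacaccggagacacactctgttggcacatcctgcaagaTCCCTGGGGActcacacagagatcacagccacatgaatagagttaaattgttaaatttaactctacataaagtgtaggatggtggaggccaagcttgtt
The Cd79a window holds the ETS letters at -55 from the start and none of the other motifs. The Cd22 window holds the EBF letters at -49 and none of the others. Of all 32851 promoter windows of this length, 9.35% hold the ETS letters, 0.904% the EBF letters, 1.74% the octamer and 5.27% the RUNX letters. These are matches of letters, and no binding was measured.

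Total counts per heart were 10172249 to 14477063. Levels are given as CPM (counts scaled to a common library size after TMM normalisation). At this depth the member counts were small. The largest count of any member in any heart was 96 (Cd4 in ISO/PE female2), and the 95% exact Poisson interval of a count of 20 ran from 12.2 to 30.9, covering counting error only. The level of cardiomyocyte markers in this whole-heart RNA differed between the groups. A change in the share of muscle and a change in expression per cell cannot be told apart. The 10 cardiomyocyte markers summed to 72757 to 80541 CPM in Ctr, 57202 to 64597 in ISO and 35697 to 51039 in ISO/PE hearts, and 2 of them fell in ISO and 6 in ISO/PE hearts vs. Ctr. The other markers of the 10 were not called (8 in ISO and 4 in ISO/PE vs. Ctr), and the paper reports Ryr2 and Ttn as unchanged. The part of these markers in the lymphocyte results was not tested beyond the scaling given below.

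Compared per kilobase of transcript in Ctr hearts, Cd79a (1.84 ± 0.0445 CPM per kilobase, SD, n = 3) and Cd79b (1.84 ± 0.0764) were the highest members, and their values overlapped. Cd4 followed at 0.937 ± 0.140 CPM per kilobase. Ms4a1 (0.641 ± 0.109), Nkg7 (0.597 ± 0.119), Cd22 (0.489 ± 0.187) and Lck (0.446 ± 0.0275) came next, and neighbours in this order did not differ beyond their spread. Ptprc, which encodes CD45 of all leukocytes, stood at 2.07 ± 0.414 CPM per kilobase. In ISO hearts the order changed to Cd4 (1.81 ± 0.294), Cd79b (0.928 ± 0.179), Cd22 (0.608 ± 0.384), Cd79a (0.504 ± 0.466), Nkg7 (0.494 ± 0.258), Lck (0.225 ± 0.108) and Ms4a1 (0.178 ± 0.0485). In ISO/PE hearts it was Cd4 (1.56 ± 0.415), Cd79b (1.14 ± 0.0824), Cd22 (0.606 ± 0.454), Cd79a (0.571 ± 0.195), Lck (0.348 ± 0.0374), Ms4a1 (0.192 ± 0.0320) and Nkg7 (0.167 ± 0.160). In ISO hearts the values of all neighbours in this order overlapped except those of Cd4 and Cd79b. In ISO/PE hearts all overlapped except those of Lck and Ms4a1.

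**Figure D1:**
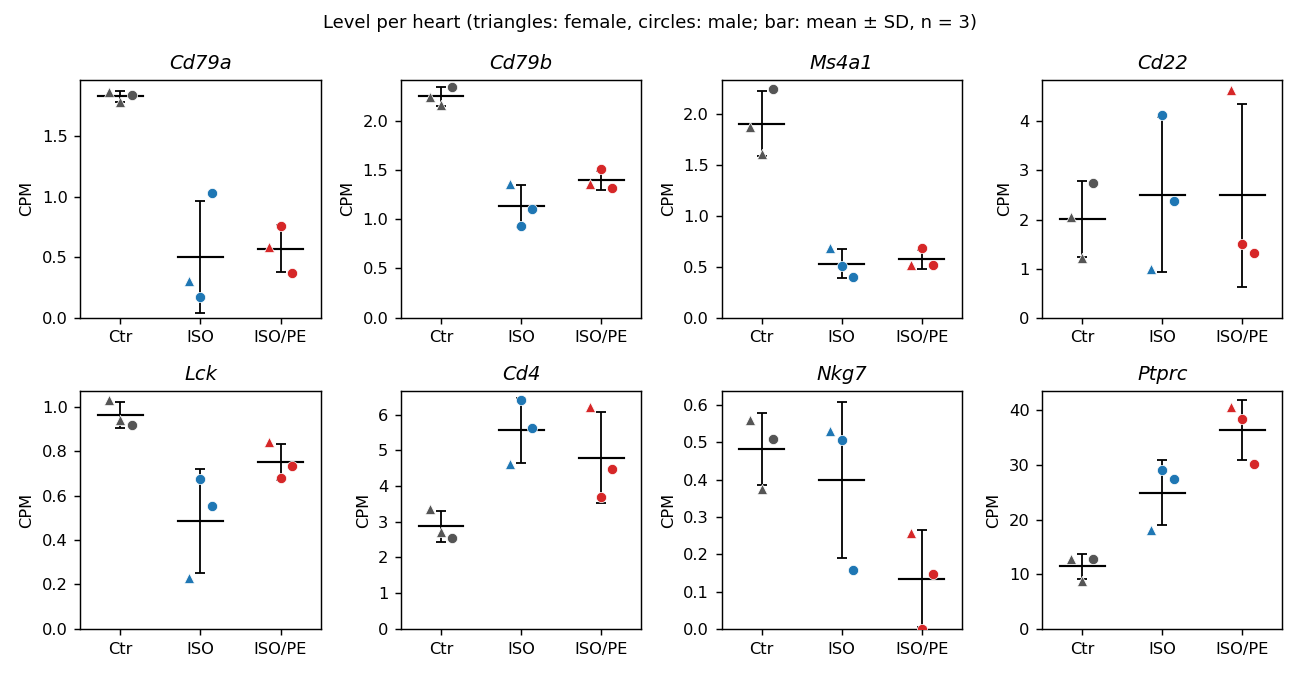
Level in CPM (vertical axes, linear and starting at 0) of the 7 members found in both tables and of Ptprc in each heart, by group, with the mean ± SD (n = 3). Cd79a, Cd79b, Ms4a1 and Lck lay below every Ctr heart in all 6 treated hearts, Cd4 and Ptprc lay above, and the Cd22 groups overlapped. How many of all genes separate in this way was not counted.

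The first question was how the marker genes stood in hearts under isoprenaline alone. Cd79a, Cd79b and Ms4a1 were lower in ISO than in Ctr hearts and Cd4 was higher, whereas Cd22 and Lck did not pass the test. A gene was called where its log2 fold change was beyond 0.6 in size and its edgeR adjusted p (Benjamini-Hochberg, over all 14426 genes tested) below 0.05. Of the 6 members tested, 3 were called lower, against 2.99% of all genes called lower in this comparison, and 1 was called higher, against 10.4%. The share called lower was set in part by the filter on low counts, as given below for Ms4a1 and Cd79a. The median log2 fold change of the 6 members was -0.98, and that of all genes -0.01. In whole-heart RNA, fewer cells of a type and less RNA per cell cannot be told apart.

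Cd79a had 20, 19 and 18 counts in the Ctr hearts (female1, female2, male1), or 1.87, 1.78 and 1.84 CPM. In ISO hearts it had 4, 2 and 13 counts (female2, male1, male2), or 0.303, 0.169 and 1.03 CPM. All 3 ISO hearts lay below all 3 Ctr hearts, with ISO male2 well above the other two. The log2 fold change was -1.84 ± 0.48 (SE, edgeR adjusted p = 0.0168). Without ISO female2 it was -1.57 (adjusted p = 0.0522), without ISO male1 -1.47 (adjusted p = 0.0569) and without ISO male2 -2.88, so that the call rested on ISO female2 and male1.

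Cd79b, which encodes the partner chain, had 24, 23 and 23 counts in Ctr hearts (2.25, 2.16 and 2.35 CPM) and 18, 11 and 14 in ISO hearts (1.36, 0.930 and 1.11 CPM). The groups did not overlap. Its log2 fold change was -0.97 ± 0.25 (edgeR adjusted p = 0.0152), smaller than that of Cd79a, although this difference between genes was not tested. The adjusted p was 0.0603 without ISO male1 and 0.053 without ISO male2, and 0.05 with DESeq2, at the threshold. With libraries scaled to 10 cardiomyocyte markers the value was -0.65 (adjusted p = 0.185), where the median of all genes moved to 0.32.

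Ms4a1 (CD20) had 20, 17 and 22 counts in Ctr hearts (1.87, 1.60 and 2.24 CPM) and 9, 6 and 5 in ISO hearts (0.682, 0.507 and 0.397 CPM). Every ISO heart was below every Ctr heart. Its log2 fold change was -1.82 ± 0.33 (edgeR adjusted p = 0.00215). This call held in all 19 other settings and sets of hearts tried, with adjusted p from 0.00214 to 0.0371. Among these, the setting without a fold threshold could not lose a call, and leaving out an ISO/PE heart kept the value at -1.82. Ms4a1 passed the filter on low counts through the Ctr hearts alone, and Cd79a through these and 1 ISO heart, so that both could only stay or fall. With no filter the edgeR adjusted p was 0.0171 for Cd79a and 0.00218 for Ms4a1.

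Cd22 behaved unlike the other B cell genes. It had 22, 13 and 27 counts in Ctr hearts (2.06, 1.22 and 2.75 CPM) and 13, 49 and 30 in ISO hearts (0.985, 4.14 and 2.38 CPM). The groups overlapped, with ISO female2 lowest and ISO male1 highest of the 6 hearts. The log2 fold change was 0.31 ± 0.58 (edgeR adjusted p = 0.738, 95% interval -0.97 to 1.58), and without ISO male1 it turned to -0.27. The transcript that stood for Cd22 is a non-coding RefSeq entry, whereas the other members tested stood on coding ones. With the longest transcript of each gene the Cd22 value was 0.35 (edgeR adjusted p = 0.706). The 4 B cell members summed to 7.99 ± 1.21 CPM in Ctr and 4.67 ± 1.23 in ISO hearts. Without Cd22, a choice made after its values were seen, the sums were 5.98 ± 0.443 and 2.17 ± 0.493 CPM.

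Among the T cell genes, Cd4 had 36, 29 and 25 counts in Ctr hearts (3.37, 2.72 and 2.55 CPM) and 61, 76 and 71 in ISO hearts (4.62, 6.42 and 5.63 CPM). All ISO hearts exceeded all Ctr hearts. The fitted log2 fold change was 0.94 ± 0.24 (edgeR adjusted p = 0.0143). The adjusted p was 0.0562 without Ctr female2, 0.0523 without Ctr male1 and 0.0621 without ISO male1.

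Lck, the kinase next to CD4, had 11, 10 and 9 counts in Ctr hearts (1.03, 0.938 and 0.918 CPM) and 3, 8 and 7 in ISO hearts (0.227, 0.676 and 0.555 CPM). The groups did not overlap, yet the gene was not called (log2 fold change -0.99 ± 0.40, edgeR adjusted p = 0.0958, 95% interval -1.87 to -0.11). Its value without ISO female2, the lowest heart, was -0.64. Lck passed the filter through the Ctr hearts and 1 ISO/PE heart, so that it too could only stay or fall in this comparison.

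Nkg7 did not pass the filter on low counts. It had 6, 4 and 5 counts in Ctr hearts and 7, 6 and 2 in ISO hearts, and the groups overlapped. Without the filter its log2 fold change was -0.27 (edgeR adjusted p = 0.792), and neither a difference nor its absence could be shown at this depth.

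The second question was how the genes stood under both agonists. The same 3 B cell genes were lower in ISO/PE than in Ctr hearts, and Cd4 was again higher. Of the 6 members tested, 3 were called lower against 10.1% of all genes, and 1 higher against 16.0%. Ms4a1 and Cd79a reached the level of the filter on low counts in no ISO/PE heart, so both could only stay or fall here. The share called lower was thus set in part by the filter. Without the filter the edgeR adjusted p was 0.012 for Cd79a and 0.00102 for Ms4a1. The median log2 fold change of the members was -0.52, against -0.01 over all genes. Both comparisons use the same Ctr hearts, so the shared calls are not separate evidence.

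Cd79a had 9, 10 and 5 counts in the ISO/PE hearts (female2, male1, male2), or 0.581, 0.756 and 0.368 CPM, all below the lowest Ctr heart. The log2 fold change vs. Ctr was -1.67 ± 0.46 (edgeR adjusted p = 0.0117). It stayed past the threshold without any 1 heart, from -1.91 to -1.45, but not with libraries scaled to 10 cardiomyocyte markers (-0.86, adjusted p = 0.11). That scaling moved the median of all genes to 0.82.

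Ms4a1 had 8, 9 and 7 counts (0.516, 0.680 and 0.515 CPM), again below every Ctr heart. Its log2 fold change was -1.72 ± 0.31 (edgeR adjusted p = 0.000987). The call held in all 19 other settings and sets of hearts, with adjusted p up to 0.0487, although the setting without a fold threshold could not lose it.

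Cd79b had 21, 20 and 18 counts (1.36, 1.51 and 1.32 CPM). Its raw counts nearly reached those of Ctr hearts in these deeper libraries, while its CPM did not overlap them. The log2 fold change was -0.68 ± 0.24 (edgeR adjusted p = 0.0348). This call was lost on leaving out any 1 of the 6 hearts compared (adjusted p from 0.0575 without ISO/PE male1 to 0.0909 without Ctr male1) and with DESeq2 (adjusted p = 0.133). It depended on the scaling as well. With libraries scaled to the 10 cardiomyocyte markers the value was 0.13.

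Cd22 had 72, 20 and 18 counts (4.65, 1.51 and 1.32 CPM), with ISO/PE female2 far above the other two and above every other heart of the study. The groups overlapped (log2 fold change vs. Ctr 0.34 ± 0.57, edgeR adjusted p = 0.647, 95% interval -0.91 to 1.60). Without ISO/PE female2 the value was -0.49. The highest ISO heart was a male and the highest ISO/PE heart the female. The log2 fold change of ISO/PE vs. ISO differed between the sexes by -3.42 ± 0.67 (male minus female). The edgeR interaction did not pass adjustment over all genes (adjusted p = 0.142), and it rests on 1 female heart per treated group.

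Cd4 had 96, 49 and 61 counts (6.20, 3.70 and 4.49 CPM), all above the Ctr hearts. The fitted log2 fold change was 0.74 ± 0.24 (edgeR adjusted p = 0.0252). The adjusted p was 0.113 without ISO/PE female2, the highest heart, where the value fell to 0.51, and 0.0795 and 0.0801 without Ctr female2 and Ctr male1.

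Lck had 13, 9 and 10 counts (0.839, 0.680 and 0.735 CPM), below the Ctr hearts and above the ISO hearts without overlap. Its log2 fold change vs. Ctr was -0.35 ± 0.37 (edgeR adjusted p = 0.46, 95% interval -1.15 to 0.45).

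Nkg7 had 4, 0 and 2 counts (0.258, 0 and 0.147 CPM) in ISO/PE hearts, each below the lowest Ctr heart (0.375 CPM). The count of 0 in ISO/PE male1 allows a level of up to 0.227 CPM (3 counts). In the fit without the filter on low counts the log2 fold change of Nkg7 vs. Ctr was -1.70 (edgeR adjusted p = 0.0771).

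**Figure D2:**
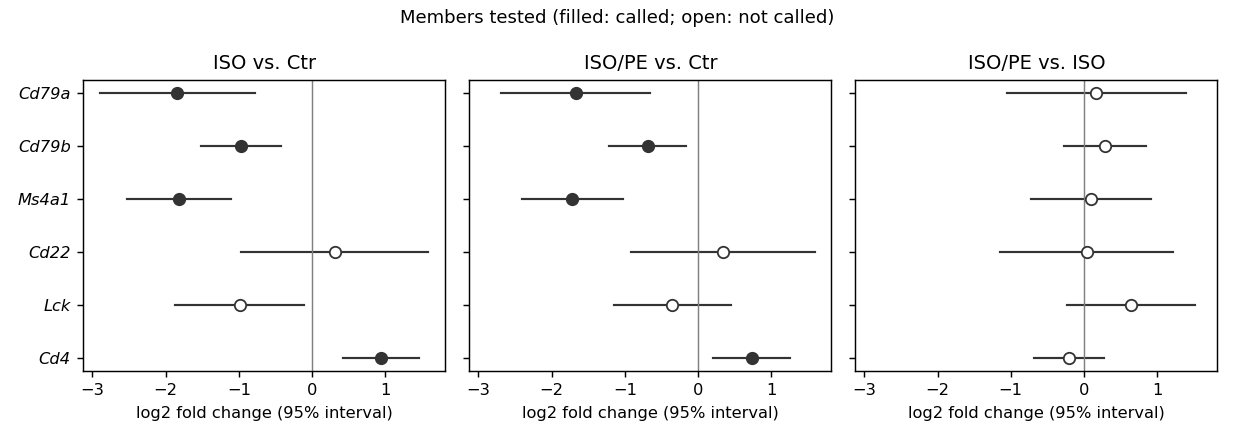
Log2 fold change (horizontal axes) with its 95% interval for the 6 members tested in each comparison, from 1 edgeR fit over the 9 hearts. Filled points passed both thresholds, namely Cd79a, Cd79b, Ms4a1 and Cd4 in both comparisons with Ctr and none in ISO/PE vs. ISO.

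The third question was whether phenylephrine on top of isoprenaline changed these genes. No member was called in ISO/PE vs. ISO by edgeR or by DESeq2, none had an unadjusted edgeR p under 0.05, and 3.64% of all genes were called higher and 2.81% lower. The log2 fold changes were 0.10 for Ms4a1 (95% interval -0.73 to 0.92), 0.17 for Cd79a (-1.05 to 1.39) and 0.29 for Cd79b (-0.27 to 0.85). They were 0.04 for Cd22 (-1.15 to 1.22), 0.64 for Lck (-0.23 to 1.52) and -0.20 for Cd4 (-0.68 to 0.28). The intervals are wide enough to hold a change of 0.6 in either direction for Ms4a1, Cd79a and Cd22, so the comparison does not show that the levels were alike.

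Of the CD3 chains, Cd3e was in neither table. The lowest sum over the 6 hearts of a table was 21 in both. Cd3g was listed in the table of ISO/PE and ISO hearts alone, with 2, 2 and 3 counts in ISO hearts and 11, 6 and 1 in ISO/PE hearts. ISO/PE female2 was highest and ISO/PE male2 lowest. A gene that is in this table and not in the other is one whose sum with the Ctr hearts was low, so it was in part selected on the difference and was not tested.

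Total leukocyte transcripts moved the other way from Cd79a, Cd79b and Ms4a1. Ptprc had 136, 94 and 126 counts in Ctr, 239, 344 and 347 in ISO and 628, 508 and 410 in ISO/PE hearts. Of 10 pan-leukocyte markers, 9 rose in ISO and 10 in ISO/PE hearts vs. Ctr, where 10.4% and 16.0% of all genes were called higher. Of 16 macrophage and monocyte markers 12 rose in ISO, and 14 rose and 1 fell in ISO/PE hearts. Per 100 Ptprc counts, Cd79a, Cd79b and Ms4a1 together had 47.1, 62.8 and 50 counts in Ctr hearts. They had 13, 5.52 and 9.22 in ISO and 6.05, 7.68 and 7.32 in ISO/PE hearts. Lck had 8.09, 10.6 and 7.14 per 100 Ptprc counts in Ctr hearts, 1.26, 2.33 and 2.02 in ISO and 2.07, 1.77 and 2.44 in ISO/PE hearts. Neither the ratio of Cd79a, Cd79b and Ms4a1 together nor that of Lck overlapped between Ctr and treated hearts.

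Relative to Ptprc, Cd4 no longer stood higher in treated hearts. It had 26.5, 30.9 and 19.8 counts per 100 Ptprc counts in Ctr, 25.5, 22.1 and 20.5 in ISO and 15.3, 9.65 and 14.9 in ISO/PE hearts. Ctr and ISO overlapped, and all ISO/PE hearts were below the others. Nkg7 had 4.41, 4.26 and 3.97 per 100 Ptprc counts in Ctr hearts, 2.93, 1.74 and 0.576 in ISO and 0.637, 0 and 0.488 in ISO/PE hearts. Cd22 ranged from 13.8 to 21.4 in Ctr, from 5.44 to 14.2 in ISO and from 3.94 to 11.5 in ISO/PE hearts. These ratios are descriptions, and Ptprc itself differed between the groups.

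**Figure D3:**
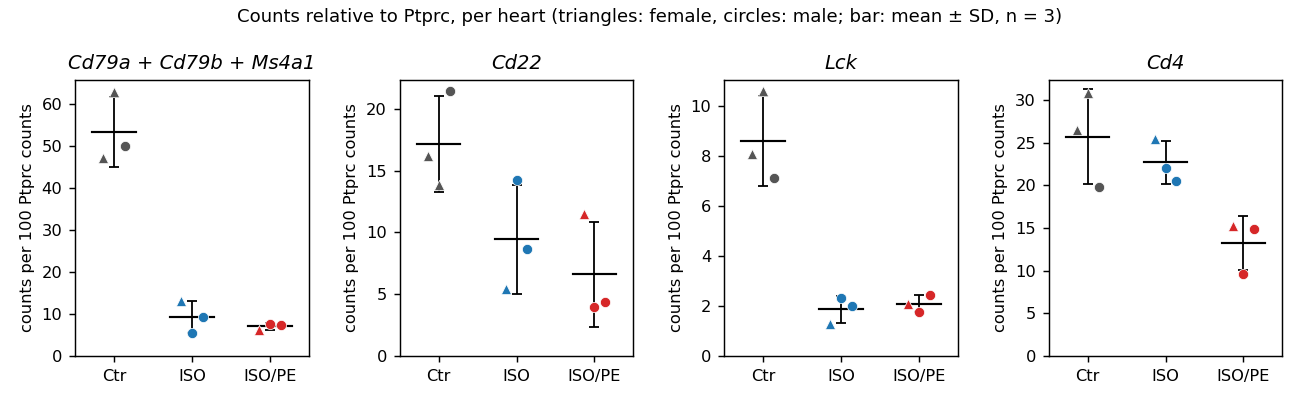
Counts of the members per 100 counts of Ptprc (vertical axes, linear and starting at 0) in each heart, with the mean ± SD (n = 3). The sum of Cd79a, Cd79b and Ms4a1 was 47.1 to 62.8 in Ctr hearts and at most 13 in treated hearts, whereas Cd4 overlapped between Ctr and ISO hearts. Cd22 was left out of the sum after its values were seen.

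The wider list of 28 B cell markers held 21 genes found in both tables, of which 18 were tested. In ISO hearts 7 fell and 4 rose vs. Ctr (median log2 fold change -0.71), and in ISO/PE hearts 8 fell and 4 rose (median -0.51). Cd79a, Cd79b and Ms4a1 are among those that fell in both. The percentages over all genes given above hold for this list and those below. Pax5, the transcription factor that maintains B cell identity, stood at 1.41 to 3.36 CPM in Ctr, 0.152 to 1.10 in ISO and 0.221 to 0.775 in ISO/PE hearts, without overlap with Ctr. It fell by 1.84 ± 0.55 on the log2 scale in ISO (edgeR adjusted p = 0.0308) and by 2.15 ± 0.56 in ISO/PE hearts (adjusted p = 0.00821). It reached the level of the filter in all Ctr hearts and in 1 heart each of ISO and ISO/PE, and without the filter the adjusted p was 0.0312 and 0.0083. The Pax5 call in ISO was lost without Ctr female1, Ctr male1, ISO female2 or ISO male2.

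The 4 genes of the list that rose were Cd180, Cd72, Cd37 and Blnk, of which Cd37 and Blnk were picked after their values were seen. All 4 are known also from macrophages or other myeloid cells. Cd180, a Toll-like receptor homologue, stood at 2.25 to 4.38 CPM in Ctr, 5.69 to 15.8 in ISO and 12.3 to 22.5 in ISO/PE hearts. Its log2 fold change vs. Ctr was 1.75 ± 0.39 in ISO (edgeR adjusted p = 0.00717) and 2.47 ± 0.38 in ISO/PE hearts (adjusted p = 0.000301). Cd72, an inhibitory coreceptor, rose by 1.52 ± 0.25 and 1.91 ± 0.24, and exons of another gene (Tesk1) cover 41.6% of its exon bases. Cd37 rose by 1.14 and 1.30, and Blnk, an adaptor of the B cell receptor, by 0.77 and 1.2.

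The count of 7 B cell markers lower in ISO hearts was 3 without Ctr male1, ISO female2 or ISO male1 and 4 without ISO male2. The count of 8 lower in ISO/PE hearts was 5 without Ctr male1 or ISO/PE female2. With libraries scaled to cardiomyocyte markers, 4 fell in ISO and 2 in ISO/PE hearts. In ISO/PE vs. ISO 1 gene of the list, Bank1, was called lower (log2 fold change -0.77 ± 0.22, edgeR adjusted p = 0.0424), and this call was lost on leaving out any 1 heart (adjusted p from 0.0534 to 0.118).

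**Figure D4:**
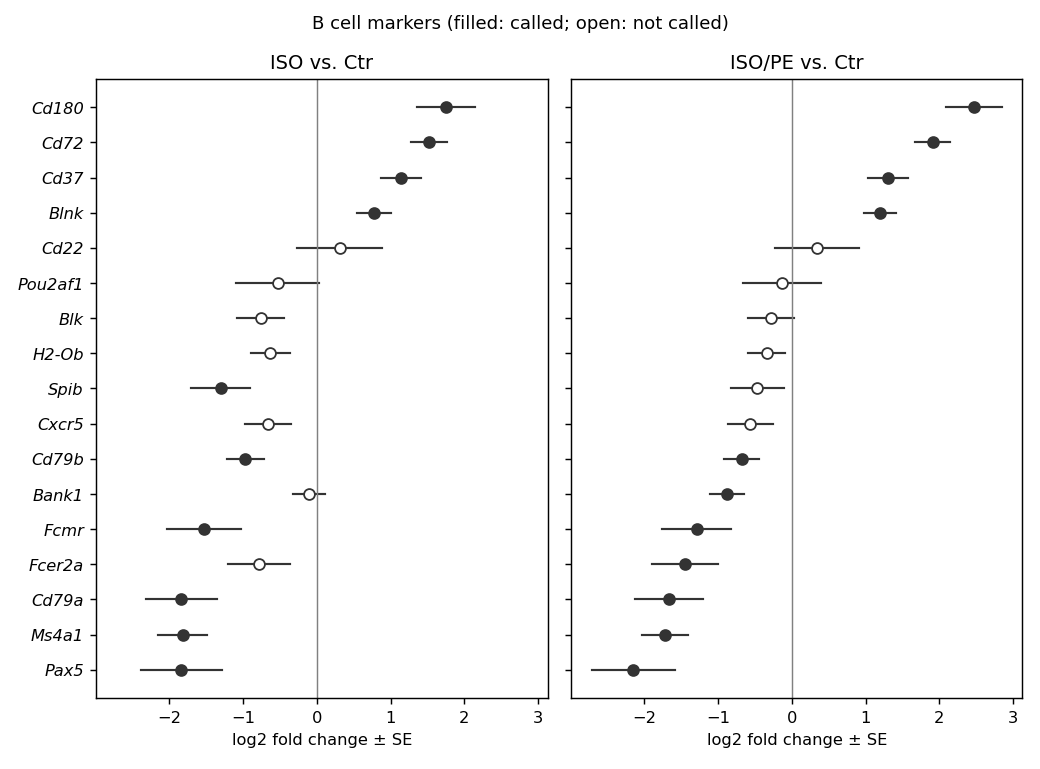
Log2 fold change ± SE (horizontal axes) of 17 of the B cell markers tested, in ISO vs. Ctr and ISO/PE vs. Ctr, ordered by the second. Filled points were called, with Cd180, Cd72, Cd37 and Blnk above 0 in both comparisons and Pax5, Ms4a1 and Cd79a at the lower end.

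Of 18 genes of B cell receptor signalling, all tested, 8 rose and 3 fell in ISO hearts vs. Ctr, and 10 rose and 3 fell in ISO/PE hearts. Cd79a and Cd79b, the signalling chains of the B cell receptor, are among those that fell in both. The genes that rose encode signalling proteins that other leukocytes share, led by the exchange factor Vav1 (log2 fold change 1.53 ± 0.22 in ISO and 2.18 ± 0.21 in ISO/PE) and the adaptor Pik3ap1 (1.48 ± 0.26 and 2.02 ± 0.26). The edgeR adjusted p of Vav1 was 0.000528 and 1.52e-05. In ISO hearts 5 rose without Ctr female1 or ISO male1, and 1 fell without ISO male1. In ISO/PE hearts 1 fell without Ctr male1 or ISO/PE female2, and 2 without Ctr female1, Ctr female2, ISO/PE male1 or ISO/PE male2.

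The list of 33 T cell markers held 16 genes found in both tables, of which 10 were tested. In ISO hearts 1 (Cd4) rose and 1 fell vs. Ctr, and in ISO/PE hearts 5 fell and 2 rose (Cd4 and Il7r). The median log2 fold change of the 10 genes was -0.44 in ISO and -0.63 in ISO/PE hearts.

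Ctla4, an inhibitory receptor of T cells, stood at 1.78 to 2.96 CPM in Ctr, 1.35 to 1.67 in ISO and 0.302 to 0.588 in ISO/PE hearts. It fell by 2.44 ± 0.34 in ISO/PE vs. Ctr (edgeR adjusted p = 0.000145) and by 1.71 ± 0.35 in ISO/PE vs. ISO (adjusted p = 0.0111), and both calls held without any 1 heart. Ctla4 reached the level of the filter in all Ctr and ISO hearts and in no ISO/PE heart. It could thus only stay or fall in both comparisons. Without the filter the edgeR adjusted p in ISO/PE vs. ISO was 0.0114. Bcl11b, a transcription factor of the T cell lineage, stood at 2.63 to 3.93, 1.35 to 2.30 and 0.680 to 1.18 CPM in the 3 groups. It fell by 1.98 ± 0.31 in ISO/PE vs. Ctr (adjusted p = 0.000391). Its fall of 1.15 ± 0.33 in ISO/PE vs. ISO (adjusted p = 0.0387) was lost without any 1 of ISO female2, ISO male2, ISO/PE female2, ISO/PE male1, Ctr female1 and Ctr male1 (adjusted p from 0.0524 to 0.129).

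Il7r, the interleukin-7 receptor chain, rose by 2.12 ± 0.40 in ISO/PE vs. Ctr (edgeR adjusted p = 0.00127), from 0.561 to 1.5 CPM in Ctr to 3.02 to 4.63 in ISO/PE hearts. Il7r reached the level of the filter in all ISO and ISO/PE hearts and in 1 Ctr heart. The receptor components Cd3e and Cd3d and the constant chains Trac, Trbc1 and Trbc2 were in neither table.

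**Figure D5:**
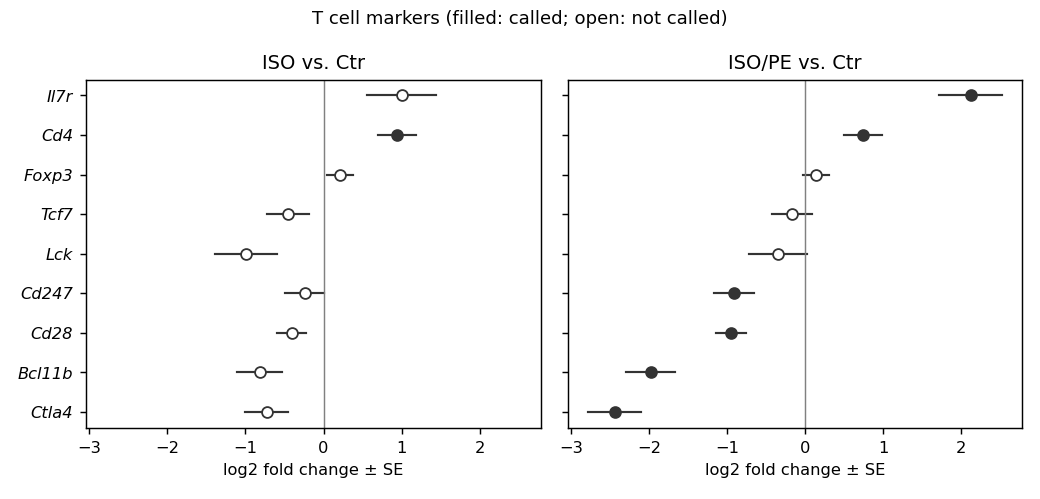
Log2 fold change ± SE (horizontal axes) of 9 of the T cell markers tested, in ISO vs. Ctr and ISO/PE vs. Ctr, ordered by the second. Filled points were called, with Il7r and Cd4 above 0 and Ctla4 and Bcl11b at the lower end in ISO/PE vs. Ctr.

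Of 15 genes of T cell receptor signalling that were tested, 3 rose (Vav1, Lcp2 and Cd4) and 1 fell in ISO hearts vs. Ctr. In ISO/PE hearts 6 rose and 5 fell vs. Ctr. The adaptor Lcp2 rose by 1.28 ± 0.23 (edgeR adjusted p = 0.00211) and 1.63 ± 0.22 (adjusted p = 0.000145). Of 18 natural killer and cytotoxic markers, 8 were in both tables and 2 passed the filter on low counts, and neither was called.

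Blood in the ventricles and other tissue were followed by their own markers. Of 9 erythroid genes, 2 rose (0 without Ctr female2 or ISO male2) and 0 fell in ISO vs. Ctr by edgeR, and their sum was 1675 to 3458 CPM in Ctr and 2699 to 4360 in ISO hearts. In ISO/PE hearts the erythroid sum was 1363 to 1834 CPM and all 9 were called lower vs. Ctr. That count was 0 without Ctr female1 or ISO/PE female2, 2 without Ctr male1 and 4 without ISO/PE male1. In ISO/PE vs. ISO all 9 erythroid genes were called lower too (median log2 fold change -1.24), and 5 to 9 were on leaving out 1 heart. No platelet marker tested was called in that comparison. Of 6 platelet markers tested, 2 fell and 1 rose in ISO, and 4 fell and 1 rose in ISO/PE hearts. The count that fell in ISO was 5 without Ctr female2 and 1 without Ctr female1, Ctr male1, ISO female2 or ISO male1. In ISO/PE hearts it was 1 without Ctr male1 and 2 without Ctr female1 or any 1 ISO/PE heart. For Ppbp, a platelet chemokine, Ctr female2 had 3.94 CPM where the highest Ctr heart had 47.6. Without Ctr female2 the log2 fold changes of Ms4a1, Cd79a and Cd79b vs. Ctr were all below 0. The Cd79b call in ISO/PE hearts was lost there (edgeR adjusted p = 0.0621). Ctr female2 had the lowest erythroid and platelet sums of the Ctr hearts (1675 and 47.9 CPM). Leaving it out therefore cannot test the part of blood content. The thymocyte genes Rag1, Rag2, Dntt and Ptcra were in neither table. The part of blood content in the results of the members and the lists was not tested.

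The likeness of other genes to these patterns was taken over the 9 hearts, as a description. The 10 genes with the highest Pearson correlation of log2 CPM with the mean of the 4 B cell members were Rab24 (0.980), Vamp5 (0.967), Zfp955a (0.964), Bloc1s1 (0.962), Immp2l (0.959), Rpusd4 (0.958), Dpm1 (0.953), Mettl26 (0.947), Reep6 (0.946) and Fundc1 (0.944). None of them is in the B cell list. All points share the difference between Ctr and treated hearts. Among the members Cd79b and Ms4a1 were most alike (0.94), followed by Cd79a and Cd79b (0.85), while Cd79b and Cd4 ran opposite (-0.92).

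The correlation of Cd22 with Cd79a, Cd79b and Ms4a1 was -0.10, -0.28 and -0.16. For the mean of Lck and Cd4, which were themselves at -0.40, the 10 leading genes were Mphosph6 (0.890), Ikzf4 (0.885), Zbtb24 (0.884), Parp16 (0.877), S100a13 (0.876), Dlg3 (0.875), Cdk5rap1 (0.873), Gm45871 (0.869), Zfp618 (0.865) and Kmo (0.859).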

How the data were processed

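Ventricular polyA RNA of 9 hearts was measured. Per the labels and the methods, the authors aligned reads to mm10 with STAR and used analyzeRepeats.pl to count exon reads of either strand for every RefSeq transcript. The submitters' processing notes also name featureCounts and DESeq2. Tool versions were not given in the sources used here. Deposited values used were raw counts, unpooled, with transcript lengths (another column of the deposited tables, in bases). Rows with low sums had been left out, and the lowest row sum was 21. The authors' columns of fold changes, standard errors, p-values and flags from their own comparisons, and 24 per-sample columns of normalized values, were not used. The table named for ISO/PE vs. control holds ISO/PE and ISO hearts.

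The tables were joined on 29889 transcripts, which left out 544 and 110 found in 1 table, and each of 15149 genes was represented by its transcript of highest total. The filterByExpr function (minimum count 10, minimum total 15, by group) left 14426. Quasi-likelihood tests (edgeR 4.0.16, R 4.3.3, TMM factors) came from 1 fit over 9 hearts without covariates, which was tested on simulated data. The SE is the fold change divided by the square root of its F statistic. Alternatives were DESeq2 1.42.0, other scalings, no filter, the longest transcript, sex as a covariate, a replicate block, the 2 groups alone, no fold threshold and leaving out each heart. In the interaction of treatment and sex, Ctr held 1 male and each treated group 1 female.

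Members and gene lists were chosen with earlier results of these data known. Named genes were all members, up to 4 called genes with the largest change per list and comparison, defining markers absent or near 0, and the 10 genes most like the B and T cell members (log2 CPM, prior count 2). The labels do not say whether hearts of a group shared a litter or day, and p-values measure the spread between these hearts. Some genes of the lists are not reported here by name. Intervals cover counting error only where given for counts.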

Additional observations from a re-analysis of the deposited data

Results flagged for a closer look

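Counts outside the comparisons came from Cd3g, a chain of the T cell receptor complex that the joined tables do not hold. In the table of ISO/PE and ISO hearts it had 18 counts over the 3 ISO/PE hearts and 7 over the 3 ISO hearts. The lowest sum in that table was 21. With 7 counts in ISO hearts, a listed gene had to exceed the 3 counts that a value of 0 allows in ISO/PE hearts. That it did so was fixed by the listing. The 18 counts were 11, 6 and 1 (female2, male1, male2), so that most came from 1 heart. The Ctr hearts have no listed count for Cd3g, and with ISO hearts at 7 they can have had at most 13 together. The difference was not tested.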

How the results depend on the processing

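Of the counts of members called, 3 lower and 1 higher in each comparison with Ctr, most kept their side of the threshold. With a replicate block (sex and number of the title) 1 member (Ms4a1) was lower and 0 higher in both comparisons, with adjusted p of 0.0811 and 0.0514 for Cd79a and of 0.121 and 0.17 for Cd79b. Libraries with the same label did not vary together (correlations of deviations from -0.12 to 0.18), so the number does not pair the hearts, and the block leaves 3 residual degrees of freedom. With libraries scaled to cardiomyocyte markers, which moved the median of all genes by 0.32, 0.82 and 0.50 in ISO vs. Ctr, ISO/PE vs. Ctr and ISO/PE vs. ISO, 1 member was lower and 2 (Cd4 and Cd22) higher in ISO/PE vs. Ctr. This scaling also changed the sign of Cd79b (0.13) and Lck (0.48), and of Itgal (0.21), in ISO/PE vs. Ctr and of Cd4 (0.33) in ISO/PE vs. ISO. It called 9636 genes higher and 174 lower in ISO/PE vs. Ctr, against 2308 and 1463.

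Leaving out 1 heart gave 0 to 1 members higher in both comparisons with Ctr, 1 to 3 lower in ISO and 2 to 3 lower in ISO/PE hearts. Cd22 ran from -0.27 (without ISO male1) to 0.70 in ISO vs. Ctr and from -0.49 (without ISO/PE female2) to 0.65 in ISO/PE vs. Ctr. In ISO/PE vs. ISO, where no member was called, Cd79a reached 1.21 without ISO male2 and Cd22 0.60 without ISO male1, and signs turned for Cd79a (-0.10 without ISO female2, -0.21 without ISO male1, -0.07 without ISO/PE male1), Ms4a1 (-0.07 without ISO male2, -0.04 without ISO/PE male1) and Cd22 (-0.35 without ISO female2, -0.80 without ISO/PE female2, -0.01 with the longest transcript). The cause was not tested. With 0 to 96 counts per member and heart, differences under the intervals given could not be detected.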

Other observations

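Signals that draw lymphocytes and the receptors that read them were measured in the same hearts. Cxcl10, a chemokine induced by interferon, rose by 3.19 ± 0.47 on the log2 scale in ISO (edgeR adjusted p = 0.00064) and by 3.49 ± 0.46 in ISO/PE hearts vs. Ctr (adjusted p = 0.000104). Cxcl16, a membrane-bound chemokine of macrophages, rose by 1.04 ± 0.18 and 1.37 ± 0.18. No other gene of 9 attraction and survival signals tested was called vs. Ctr. Cxcl12, a stromal chemokine, was 0.66 lower in ISO/PE than in ISO hearts on the log2 scale (log2 fold change -0.66 ± 0.13, adjusted p = 0.0086), -0.56 without ISO/PE female2 and -0.19 (adjusted p = 0.276) with libraries scaled to cardiomyocyte markers.

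Of 10 homing receptors tested, the integrin chain Itga4 rose by 0.96 ± 0.16 in ISO and 1.22 ± 0.15 in ISO/PE hearts vs. Ctr. Both calls held in all 19 other settings and sets of hearts, although the setting without a fold threshold could not lose them. S1pr4, a sphingosine 1-phosphate receptor of lymphocytes, fell by 0.92 ± 0.25 (edgeR adjusted p = 0.0181) and by 1.2 ± 0.25 (adjusted p = 0.00218). Its call in ISO was lost without Ctr female1, Ctr male1, ISO female2 or ISO male2. Both calls were lost with libraries scaled to cardiomyocyte markers (-0.60, edgeR adjusted p = 0.19, in ISO and -0.35, adjusted p = 0.34, in ISO/PE hearts).

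Klrd1, a chain of natural killer cell receptors, was listed in the table of ISO/PE and ISO hearts alone, with 2, 1 and 7 counts in ISO and 13, 14 and 10 in ISO/PE hearts. It was singled out after its values were seen and, as for Cd3g, its presence in that table alone favours higher counts in ISO/PE hearts.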
